A study of Mus musculus with 4 samples.

Results

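The 10 genes described here serve contact between the oocyte and its granulosa cells (GCs), its somatic neighbours in the follicle. They were chosen by name for their known roles, with earlier results of these data known, and each was found as 1 Ensembl identifier among the 55385 genes of the deposited count table. They are Kitl, the natriuretic peptide gene Nppc with its receptor gene Npr2, the connexin genes Gja1, Gja4 and Gjc1, the cadherin genes Cdh1 and Cdh2, the junction scaffold gene Tjp1, and Myo10. Bulk RNA sequencing had measured them in 4 libraries of GCs from preantral follicles of Kunming mice aged 12 to 14 days. The follicles had been grown in vitro for 6 days, either with NT-4, the growth factor neurotrophin-4 (the NT4 group, 2 libraries) or without it (the Control group, 2 libraries). By the study's methods both groups were cultured singly in wells in the same medium with follicle-stimulating hormone, and the GCs were those left after the oocytes had been taken out by pipetting. The labels of these libraries do not state the concentration of NT-4, which the study set at a single dose after trying several. By the study, the 2 libraries of a group came from independent experiments. How many follicles or mice made up a library is not given in the sources used here. Libraries are named by the replicate numbers of the labels, so that Control 1 is the first Control library. The p-values measure the spread between these libraries.

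A growing oocyte depends on its GCs through direct contact. Thin projections of the GCs cross the zona pellucida, touch the oocyte membrane and carry gap junctions, which are channels built of connexins that pass small molecules such as cyclic GMP, nucleotides and amino acids. Cadherins hold the membranes together at adherens junctions, and zonula occludens proteins tie junctions to actin. Signals in both directions run across the same contact: GCs make kit ligand for the KIT receptor of the oocyte, and in antral follicles C-type natriuretic peptide acts on its receptor in cumulus cells to make the cyclic GMP that keeps the oocyte in meiotic arrest.

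The libraries held totals of 49520092 to 78704020 counts, and low counts piled up at multiples of 4. Of the counts from 1 to 12, 45.4% to 46.2% by library were 4, 8 or 12, and the rest were other values. Each read pair was therefore assumed to count as about 4, which the sources do not state. The limits of detection, read pairs and Poisson intervals given here rest on this assumption. Levels are given as CPM, which are counts per 1000000 of the library total, and a gene without a count could lie anywhere up to 3 read pairs, or 0.152 to 0.242 CPM by library (counting error only). GC markers were abundant, with all 11 of 11 above the filter on low counts and a summed level of 10744 to 17183 CPM, led by the inhibin alpha gene Inha at 5855 to 8687 CPM. Oocyte RNA was present as well, as 15 marker genes (14 of them tested) summed to 102 to 148 CPM, led by the oocyte growth factor gene Gdf9 at 23.0 to 30.8 CPM. Markers of theca and stroma summed to 1485 and 1433 CPM in Control and 2102 and 1647 CPM in NT4. All 10 had a higher fitted value in NT4, 6 did not overlap between groups (11.9% of all genes tested were higher in NT4 without overlap) and 4 had an unadjusted p under 0.05 in edgeR's test (1.99% of all genes), while 0 passed the adjustment. The collagen gene Col3a1 led this list, at 380 and 388 CPM in Control and 540 and 437 CPM in NT4. Endothelial markers summed to 19.3 to 28.5 CPM. Among them Tek, at 0.162 and 0.190 CPM in Control and 0.952 and 0.432 CPM in NT4, was past a fold of 2 with an unadjusted p of 0.0366 in edgeR's test (log2 fold change 1.97), with Control near the limit of detection. Kdr was at 1.11 and 0.597 CPM in Control and 0.50 and 0 CPM in NT4. Surface epithelium markers summed to 35.0 to 44.2 CPM and macrophage markers to 1.38 to 3.21 CPM. Each of the last 3 lists rested on few genes: Cdh5 led the endothelial list at 16.4 to 25.5 CPM, Krt8 the epithelial list at 26.2 to 33.4 CPM and Cd68 the macrophage list at 0.624 to 1.42 CPM. Krt19 had 0 counts in all 4 libraries, and Ptprc had 0 counts in 3 of them. In bulk samples fewer cells of a type and less RNA per cell cannot be told apart.

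The question of the comparison was whether NT-4 in the culture medium was accompanied by other levels of these contact genes. No member passed the test for a difference between the groups. Kitl, Npr2 and Gja4 had fitted values slightly above Control, and the other 7 lay below it. Of the 10, only the neural cadherin gene Cdh2 and the scaffold gene Tjp1 had both NT4 libraries below both Control libraries. This pattern was seen in 14.6% of all genes tested. Fitted levels were 0.820 of Control for Cdh2 and 0.899 for Tjp1. The abundant connexin gene Gja1 was the most even in CPM, within a range of 1.07-fold over the 4 libraries.

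All 10 members passed the filter on low counts and were tested together with the other genes, 19259 in all. By edgeR's quasi-likelihood test 0 of 10 members passed an adjusted p of 0.05, against a background of 0.0% of all genes tested. The criterion of the study's methods was a fold change beyond 2 in either direction and p under 0.05, taken here before adjustment. Of the members, 0 met this criterion, against 1.08% of all genes (0.478% higher and 0.602% lower in NT4). At an unadjusted p under 0.05 there were 0 members, against 1.99% of all genes, and the DESeq2 Wald test, edgeR's exact test and limma voom also gave 0 members. Over all genes the count at an adjusted p of 0.05 was 0, and it was 65 by the DESeq2 Wald test, 12 without Control 1 and 37 without Control 2. The criterion was met by 208 genes, and by 406 and 512 with the first or second Control library left out, and 341 and 392 with the first or second NT4 library left out. The members' median log2 fold change was −0.02, beside 0.0045 over all genes tested, and without NT4 1 it was 0.067. Groups did not overlap for 2 of 10 members, both lower in NT4, against 26.6% of all genes in either direction and 14.6% in that direction. The adjusted p of each member was 0.9999 in edgeR's test. With 2 libraries against 2, an exact permutation test of a single gene could not give a two-sided p below 0.333.

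**Figure D1:**
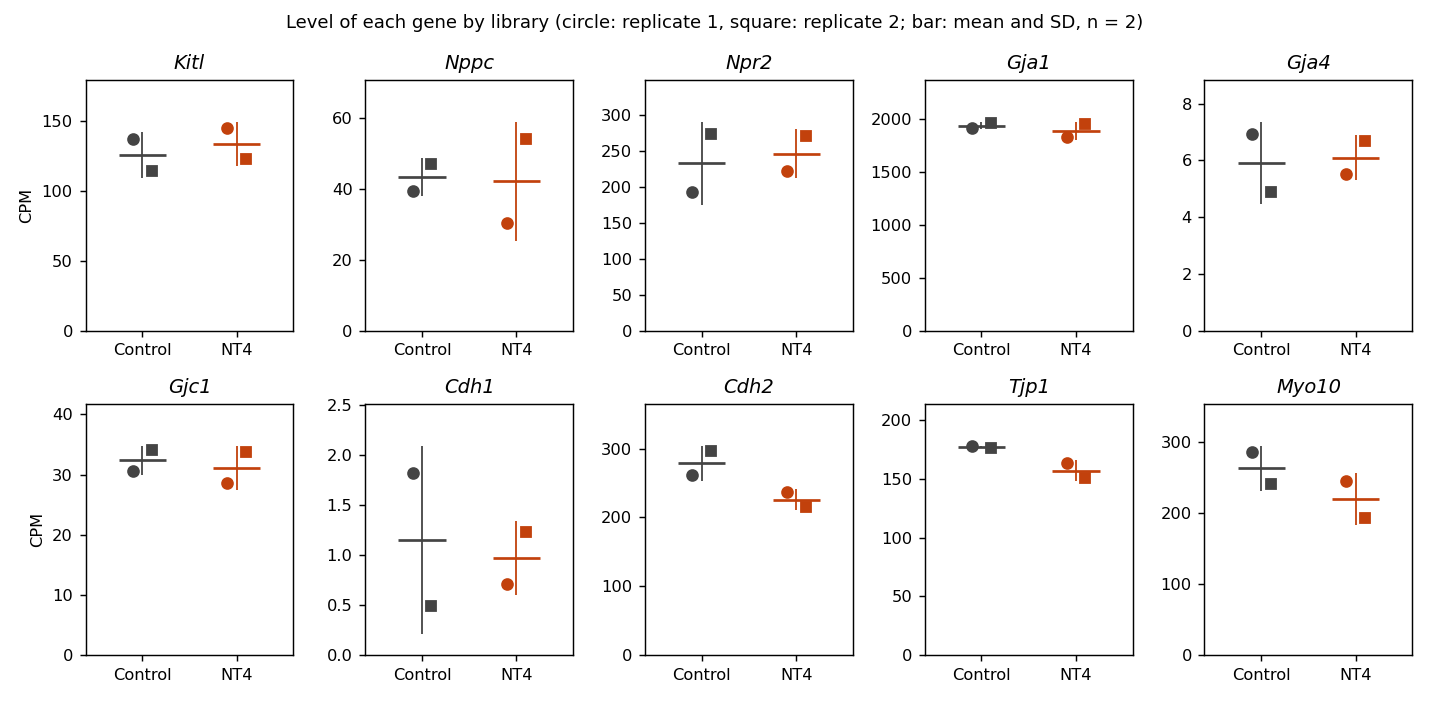
CPM of each of the 10 genes in the 4 libraries, with Control in grey and NT4 in orange, replicate 1 as circles and replicate 2 as squares, and bars for the mean and SD (n = 2). Cdh2 and Tjp1 are the genes whose groups do not overlap, as was so for 26.6% of all genes tested. The libraries of a group lie far apart for Nppc, Npr2 and Cdh1.

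Kitl encodes kit ligand, which GCs make and which drives oocyte growth through KIT. It lies on chromosome 10 of GRCm38, from 100015630 to 100100416, and its level was 137 CPM in the first Control library and 114 CPM in the second, against 145 CPM in the first NT4 library and 122 CPM in the second. The libraries numbered 1 were the higher ones in both groups, and the groups overlapped. Its log2 fold change of NT4 over Control was 0.11 (SE 0.15, 95% interval −0.26 to 0.48), and it was −0.0065 without Control 2 and −0.0040 without NT4 1. Kit, the gene of its receptor on the oocyte, was at 6.62 and 5.48 CPM in Control and 5.84 and 5.44 CPM in NT4, also with overlapping groups. Kit is on the list of oocyte markers, and the part of oocyte RNA in its level was not tested. The membrane-bound and soluble forms of kit ligand come from splicing of the same gene, and the counts per gene hold no split between them.

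Nppc encodes the precursor of C-type natriuretic peptide, the ligand, and Npr2 the receptor guanylyl cyclase that turns GTP into cyclic GMP. Nppc (chromosome 1, 86666291 to 86670571) was at 39.5 CPM in the first Control library and 47.1 CPM in the second, against 30.3 CPM in the first NT4 library and 54.1 CPM in the second. The NT4 libraries were the lowest and the highest of the 4, so the spread within the NT4 group (SD 16.8 CPM, n = 2) exceeded the difference of −1.08 CPM between group means. Its log2 fold change was −0.01 (SE 0.31, 95% interval −0.78 to 0.76). It was 0.14 without Control 2 and 0.35 without NT4 1. Npr2 (chromosome 4, 43631935 to 43651244) was at 192 CPM in the first Control library and 274 CPM in the second, against 222 CPM in the first NT4 library and 270 CPM in the second. The groups overlapped, and the libraries numbered 2 were the higher ones in both. Its log2 fold change was 0.10 (SE 0.22, 95% interval −0.45 to 0.65), and it was −0.15 without Control 1 and −0.07 without NT4 2. An antisense gene, Gm12473, shares 266 exonic bases with Npr2, and whether counting used strand is not stated, so part of the Npr2 count is uncertain. With both summed the log2 fold change was 0.10.

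Ligand and receptor transcripts were close in level once divided by exon length. Per kb of exon, Nppc was at 37.9 and 45.2 CPM in Control and 29.1 and 52.0 CPM in NT4, and Npr2 at 41.2 and 58.7 CPM in Control and 47.7 and 57.9 CPM in NT4. The ratio of Nppc to Npr2 within a library was 0.920 and 0.771 in the Control libraries, and 0.611 and 0.897 in the NT4 libraries. Npr2 was thus the higher of both in each library, and the ratio did not separate the groups. A level per length depends on the length used, since Npr2 has 10 annotated transcripts and Nppc has 1.

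Nppc and Npr2 shared the pattern of being higher in the libraries numbered 2, as did the connexin genes Gja1 and Gjc1. Such a split by number, in either direction, was seen in 48.6% of all genes tested, so the pattern is a common one. For the ligand, its receptor and the abundant connexin gene Gja1 the 250 bases before the transcription start are shown (RefSeq, GRCm38.p6). Capitals mark matches on either strand to 5 short motifs: the TATA box as TATAAA, the CCAAT box by its own letters, the GC box as GGGCGG, the core of the cyclic AMP response element as TGACG and the AP-1 site as TGANTCA, and 0 of the matches overlapped another.
Nppc, chr1:86670574-86670823, minus strand: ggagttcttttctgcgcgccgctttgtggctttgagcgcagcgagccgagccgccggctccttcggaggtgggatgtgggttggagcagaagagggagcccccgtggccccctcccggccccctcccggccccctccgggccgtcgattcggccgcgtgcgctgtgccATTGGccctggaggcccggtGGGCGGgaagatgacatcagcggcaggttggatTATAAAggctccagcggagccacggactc
Npr2, chr4:43631685-43631934, plus strand: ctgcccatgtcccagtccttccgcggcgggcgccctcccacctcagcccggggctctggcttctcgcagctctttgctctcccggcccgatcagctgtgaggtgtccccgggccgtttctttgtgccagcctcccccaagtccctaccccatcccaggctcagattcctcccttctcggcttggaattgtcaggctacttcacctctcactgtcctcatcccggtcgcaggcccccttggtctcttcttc
Gja1, chr10:56377050-56377299, plus strand: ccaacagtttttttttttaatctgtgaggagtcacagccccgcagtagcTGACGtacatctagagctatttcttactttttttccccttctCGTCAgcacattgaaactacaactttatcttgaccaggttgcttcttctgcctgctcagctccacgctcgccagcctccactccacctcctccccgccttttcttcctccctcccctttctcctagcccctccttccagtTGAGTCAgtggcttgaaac
The Nppc window held TATAAA from 29 bases before the start, GGGCGG from 62 bases and a reverse-strand CCAAT from 82 bases before it. The Gja1 window held TGANTCA from 19 bases before the start and TGACG at 201 and, on the reverse strand, 159 bases before it. The Npr2 window held none of these letters. Over the 32851 windows of this length in the table, TATAAA was in 12.4%, CCAAT in 33.8%, GGGCGG in 32.7%, TGACG in 17.8% and TGANTCA in 6.75%. A promoter entry was found for 7 of the 10 members.

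Gja1 encodes connexin 43, which joins GCs to one another. It lies on chromosome 10 from 56377330 to 56402513, and its level was 1914 CPM in the first Control library and 1964 CPM in the second, against 1828 CPM in the first NT4 library and 1952 CPM in the second. The 4 libraries were close together and the groups overlapped. Its log2 fold change was −0.02 (SE 0.10), the smallest SE of the 10 genes. The 95% interval of −0.27 to 0.24 on the log2 scale corresponds to 0.829 to 1.18 of the Control level. The value was 0.018 without Control 2 and 0.043 without NT4 1.

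Gja4 encodes connexin 37, the connexin by which the oocyte takes part in gap junctions with GCs, and which endothelium also makes. Gja4 (chromosome 4, 127311421 to 127314039) was at 6.95 CPM in the first Control library and 4.90 CPM in the second, against 5.53 CPM in the first NT4 library and 6.67 CPM in the second. Control 1 and NT4 2 were the high libraries, and the groups overlapped. Its log2 fold change was 0.07 (SE 0.26, 95% interval −0.60 to 0.74), and it was −0.15 without Control 2 and −0.09 without NT4 2. These values rest on 85.8 to 131 estimated read pairs per library, and the exact Poisson interval in Control 1 was 5.56 to 8.58 CPM (counting error only). The oocyte gene Gdf9 was at 30.8 and 23.0 CPM in Control and 25.6 and 30.2 CPM in NT4, high in the same libraries as Gja4. The summed oocyte markers were at 148 and 102 CPM in Control and 119 and 116 CPM in NT4, so they were high in Control 1 but not in NT4 2. Summed endothelial markers were at 25.9 and 19.3 CPM in Control and 28.5 and 20.8 CPM in NT4. Most of this sum was Cdh5, at 21.8 and 16.4 CPM in Control and 25.5 and 17.6 CPM in NT4. Pecam1 and, near the limit of detection, Cldn5 were higher in Control 1 and NT4 2, as Gja4 was, while Cdh5, Kdr, Tek and Emcn were not. The part of either cell type in the Gja4 level was not tested.

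Gjc1 encodes connexin 45. Gjc1 (chromosome 11, 102799579 to 102819700) was at 30.7 CPM in the first Control library and 34.0 CPM in the second, against 28.6 CPM in the first NT4 library and 33.7 CPM in the second. As with Gja1, the libraries numbered 2 were the higher ones and the groups overlapped. The log2 fold change was −0.03 (SE 0.17, 95% interval −0.46 to 0.39), and it was 0.060 without Control 2 and 0.091 without NT4 1.

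Gja1 made up most of the connexin transcripts. Of the summed level per kb of exon over the 20 connexin genes listed, Gja1 took 93.5% and 94.5% in the Control libraries, and 94.3% and 94.1% in the NT4 libraries. Gjc1 took 3.02% to 3.36% and Gja4 1.43% to 2.07%, so the other 17 connexin genes together made up 0.642% to 1.42%. With the longest transcript in place of all exons the share of Gja1 was 96.8% to 97.2%. Within a library Gja1 was 28.2 to 31.2 times as high as Gjc1 per length, and this ratio did not separate the groups. Gjc1 was 1.49 and 2.34 times as high as Gja4 per length in the Control libraries, and 1.74 and 1.70 times in the NT4 libraries.

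**Figure D2:**
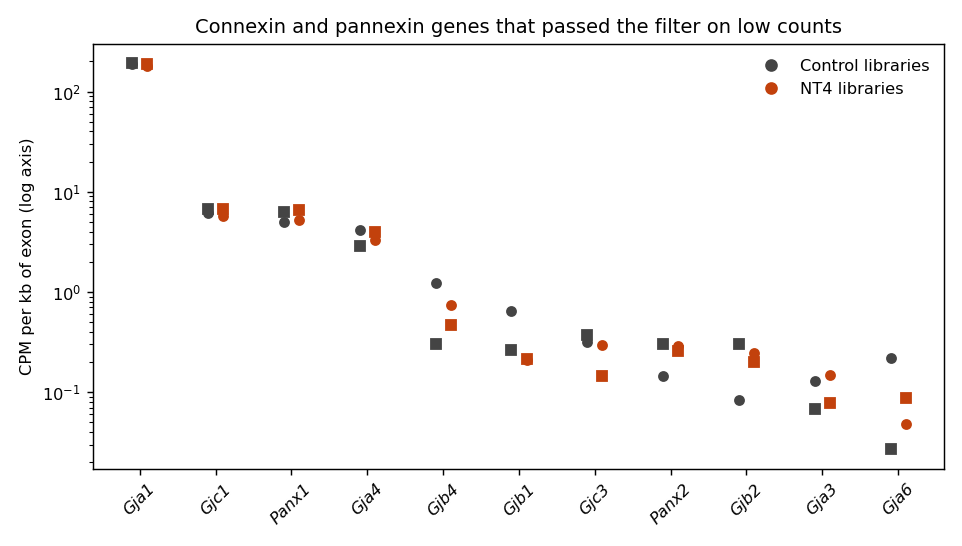
Level per kb of exon, on a log axis, of the 11 connexin and pannexin genes that passed the filter on low counts, with 1 point per library (Control grey, NT4 orange; circle replicate 1, square replicate 2). Gja1 stands above all others in each library, and Gjc1, Panx1 and Gja4 are the only others above 2 CPM per kb.

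Of the 23 connexin and pannexin genes on the list, 11 were tested and 0 passed either threshold or an unadjusted p under 0.05 in edgeR's test. Fitted values were higher in NT4 for 5 and lower for 6, and their median log2 fold change was −0.02, beside 0.0045 over all genes. Panx1, which encodes a channel protein of the related pannexin family, was at 30.4 and 38.0 CPM in Control and 31.5 and 39.5 CPM in NT4. Connexin 32 (Gjb1) was at 1.09 and 0.447 CPM in Control and 0.355 and 0.368 CPM in NT4, with an unadjusted p of 0.164 in edgeR's test. Gjc3 was at 1.37 and 1.61 CPM in Control and 1.27 and 0.635 CPM in NT4, with 0.228. Gjd4, Gje1 and Panx3 had 0 counts in all libraries.

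Cdh2 encodes N-cadherin, the cadherin that GCs carry. Cdh2 (chromosome 18, 16588877 to 16809246) was at 261 CPM in the first Control library and 297 CPM in the second, against 236 CPM in the first NT4 library and 215 CPM in the second. Both NT4 libraries were below both Control libraries, and the difference of −53.2 CPM exceeded the SD of either group (25.2 in Control and 15.4 in NT4, n = 2 each). The log2 fold change was −0.29 (SE 0.13, 95% interval −0.61 to 0.04). In edgeR's quasi-likelihood test the unadjusted p was 0.0730, and the adjusted p was 0.9999. This was the smallest unadjusted p of the 10 genes, and leaving out a library gave values of −0.39 to −0.18.

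Cdh1 encodes E-cadherin, which in the follicle is known from the oocyte and in the ovary from surface epithelium. Cdh1 (chromosome 8, 106603351 to 106670246) was at 1.82 CPM in the first Control library and 0.488 CPM in the second, against 0.710 CPM in the first NT4 library and 1.23 CPM in the second. The Control libraries were the highest and the lowest of the 4. The counts came from 9 to 24.3 estimated read pairs, and exact Poisson intervals were 1.15 to 2.74 CPM in Control 1 and 0.223 to 0.927 CPM in Control 2 (counting error only). The log2 fold change was −0.20 (SE 0.72, 95% interval −2.01 to 1.6), the widest interval of the 10 genes, and it includes a 2-fold difference in either direction. The value was 1.0 without Control 1 and 0.15 without NT4 1. Control 1 and NT4 2 were also the high libraries for Gja4 and Gdf9, while the summed oocyte markers, given above, were high in Control 1 alone. Of the epithelial keratin genes, Krt8 was at 30.1 and 26.2 CPM in Control and 33.4 and 27.1 CPM in NT4. Krt18 was at 11.3 and 7.92 CPM in Control and 9.54 and 9.71 CPM in NT4. This is the order of libraries of Cdh1, though the NT4 libraries were nearly level. The summed list of surface epithelium, at 42.4 and 35.0 CPM in Control and 44.2 and 37.4 CPM in NT4, did not have this order. Near the limit of detection, Epcam had 0 counts in Control 1, where Cdh1 was highest. Upk3b, also near that limit, was at 0.263 and 0 CPM in Control and 0.129 and 0.292 CPM in NT4. Like Cdh1, Upk3b was high in Control 1 and NT4 2. Lgals7 of the same list was lowest in NT4 2, at 0.545 and 0.583 CPM in Control and 0.742 and 0.254 CPM in NT4. The part of oocyte or epithelial RNA in the Cdh1 level was not tested. Per kb of exon Cdh2 was 81.4 to 344 times as high as Cdh1 within a library.

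Of 18 cadherin, catenin and nectin genes, 16 were tested and 0 passed either threshold or an unadjusted p under 0.05 in edgeR's test. Fitted values were higher in NT4 for 8 and lower for 8, with a median log2 fold change of −0.01 beside 0.0045 over all genes. Catenins link cadherins to actin. The catenin genes Ctnnb1, Ctnnd1 and Ctnna1 had the highest levels per length of this list, while Ctnna2 was at 17.5 to 35.4 CPM and Ctnna3 at 1.63 to 5.07 CPM. Ctnnb1, beta-catenin, was at 652 and 679 CPM in Control and 692 and 552 CPM in NT4, and Ctnnd1, which binds cadherins at the membrane, at 348 and 327 CPM in Control and 341 and 268 CPM in NT4. Ctnna1, alpha-catenin, was at 321 and 221 CPM in Control and 209 and 208 CPM in NT4. For Ctnna1 the difference came to −0.35 on the log2 scale (SE 0.19), with an unadjusted p of 0.121 in edgeR's test. Besides Cdh2, Ctnna1 was the other gene of this list with both NT4 libraries below both Control libraries, which makes 2 of 16 tested, against 14.6% of all genes.

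Tjp1 encodes zonula occludens 1, a scaffold that binds connexin 43 and links junctions to actin. Tjp1 (chromosome 7, 65296165 to 65527781) was at 178 CPM in the first Control library and 176 CPM in the second, against 163 CPM in the first NT4 library and 151 CPM in the second. The Control libraries were nearly level and both NT4 libraries lay below them, by −20.1 CPM on average. The SD was 0.97 CPM in Control and 9.02 CPM in NT4 (n = 2 each). Exact Poisson intervals were 170 to 185 CPM in Control 1 and 170 to 183 CPM in Control 2 (counting error only). The gap between the Control libraries was smaller than the width of these intervals. The log2 fold change was −0.15 (SE 0.11, 95% interval −0.44 to 0.13), with an unadjusted p of 0.226 in edgeR's test. Leaving out a library gave −0.20 to −0.12. The level of Cdh2 relative to Tjp1 per length was 1.42 and 1.63 in the Control libraries, and 1.40 and 1.38 in the NT4 libraries. Both NT4 libraries were just below both Control libraries, but NT4 1 and Control 1 were almost level. The share of other gene pairs that separate in this way was not computed.

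Of 20 tight junction genes 18 were tested, 11 with higher and 7 with lower fitted values in NT4, and 0 passed either threshold or an unadjusted p under 0.05 in edgeR's test. Their median log2 fold change was 0.07 beside 0.0045 over all genes. The junctional adhesion molecules F11r (195 and 197 CPM in Control, 206 and 181 CPM in NT4) and Jam2 (307 and 254 CPM in Control, 263 and 244 CPM in NT4) were the most abundant per length. The claudin gene Cldn3 was at 0.162 and 0.136 CPM in Control and 0.468 and 0.254 CPM in NT4, near the limit of detection.

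Myo10 encodes the unconventional myosin that travels to the tips of filopodia and takes part in making the projections of GCs. Myo10 (chromosome 15, 25622525 to 25813673) was at 285 CPM in the first Control library and 241 CPM in the second, against 245 CPM in the first NT4 library and 194 CPM in the second. Control 1 was the highest and NT4 2 the lowest, while Control 2 and NT4 1 were nearly level, so the groups overlapped. The log2 fold change was −0.24 (SE 0.16, 95% interval −0.64 to 0.16), with an unadjusted p of 0.183 in edgeR's test. Leaving out a library gave −0.41 to −0.099. Beside the lower values of Cdh2, Tjp1 and Myo10 in NT4, the summed markers of theca and stroma were higher in both NT4 libraries than in both Control libraries, as given above. Their part in these differences was not tested.

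**Figure D3:**
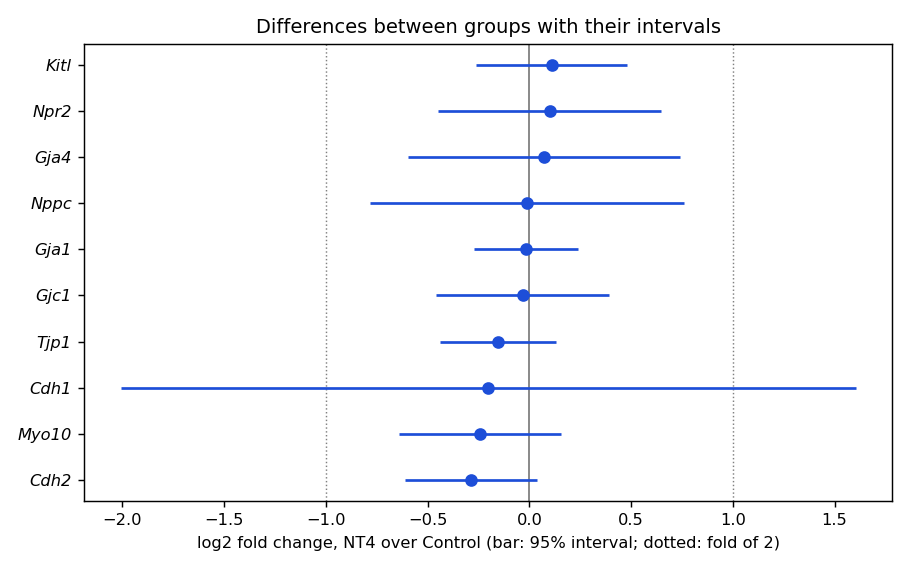
Log2 fold change of NT4 over Control for the 10 genes (points) with 95% intervals from edgeR's quasi-likelihood fit (bars) and dotted lines at a fold of 2. All 10 intervals include 0, and 9 lie within a fold of 2 in either direction, the exception being Cdh1.

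Of 20 genes of filopodia and transzonal projections 19 were tested, 7 with higher and 12 with lower fitted values in NT4. Of these, 0 passed either threshold or an unadjusted p under 0.05 in edgeR's test, and the median log2 fold change was −0.05 beside 0.0045 over all genes. Fscn1, the actin bundling protein fascin, had the highest level per length of this list, at 716 and 725 CPM in Control and 592 and 715 CPM in NT4. Cdc42, a small GTPase that induces filopodia, was at 355 and 339 CPM in Control and 361 and 344 CPM in NT4, and Rdx, the membrane-actin linker radixin, at 275 and 264 CPM in Control and 265 and 240 CPM in NT4. The formin gene Diaph2 was at 29.1 CPM in Control 1 against 13.9 in Control 2, 13.5 in NT4 1 and 13.2 in NT4 2, with an unadjusted p of 0.117 in edgeR's test.

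Around Nppc and Npr2, 17 of 19 genes of natriuretic peptides and cyclic GMP were tested. Fitted values were higher in NT4 for 9 and lower for 8, 0 passed either threshold or an unadjusted p under 0.05 in edgeR's test, and the median log2 fold change was 0.05 beside 0.0045 over all genes. Nppa and Nppb, the genes of the other natriuretic peptides, had 0 counts in all 4 libraries. Npr1, their receptor, was at 5.94 and 4.88 CPM in Control and 6.62 and 4.45 CPM in NT4, and Npr3, which clears the peptides, at 2.85 and 1.57 CPM in Control and 2.78 and 2.05 CPM in NT4. Furin, a protease that processes such precursors, was at 115 and 122 CPM in Control and 117 and 113 CPM in NT4. Gucy1b1, a subunit of soluble guanylyl cyclase, was at 8.02 and 7.80 CPM in Control and 9.58 and 11.1 CPM in NT4. For Gucy1b1 the difference came to 0.41 on the log2 scale (SE 0.19), with an unadjusted p of 0.0780 in edgeR's test. The enzymes that feed GTP synthesis were Impdh1, at 84.3 and 121 CPM in Control and 71.8 and 84.9 CPM in NT4, and Impdh2, at 145 and 148 CPM in Control and 149 and 139 CPM in NT4. The oocyte phosphodiesterase gene Pde3a was at 2.69 and 2.50 CPM in Control and 3.60 and 2.66 CPM in NT4.

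Of 14 genes of ligands and receptors across the contact all were tested, 6 with higher and 8 with lower fitted values in NT4. Of these, 0 passed either threshold or an unadjusted p under 0.05 in edgeR's test, and the median log2 fold change was −0.05 beside 0.0045 over all genes. The receptors that GCs use for the oocyte factors GDF9 and BMP15 were the highest per length. Bmpr2 was at 972 and 965 CPM in Control and 967 and 766 CPM in NT4, Bmpr1b at 322 and 297 CPM in Control and 327 and 259 CPM in NT4, and Tgfbr1 at 208 and 217 CPM in Control and 208 and 168 CPM in NT4. Adam17, a protease that sheds membrane-bound ligands, was at 172 and 170 CPM in Control and 161 and 142 CPM in NT4, with an unadjusted p of 0.247 in edgeR's test.

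The order of the 10 genes by level per kb of exon, as the mean of 4 libraries with its SD, began with Gja1 at 187 ± 6.02 CPM per kb (n = 4). Npr2 (51.4 ± 8.44), Nppc (41.1 ± 9.81), Cdh2 (31.3 ± 4.36), Myo10 (23.8 ± 3.72), Kitl (21.9 ± 2.37) and Tjp1 (21.4 ± 1.63) followed. From Npr2 to Tjp1 the libraries of each gene overlapped with those of the next in this order, and Tjp1 did not overlap with Gjc1. Gjc1 (6.34 ± 0.521), Gja4 (3.57 ± 0.572) and Cdh1 (0.232 ± 0.130) came last and did not overlap with one another. With the longest transcript as length, Cdh2 stood before Nppc and Tjp1 before Kitl, the level of Gja1 was 492 CPM per kb, and the other 6 genes kept their place.

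**Figure D4:**
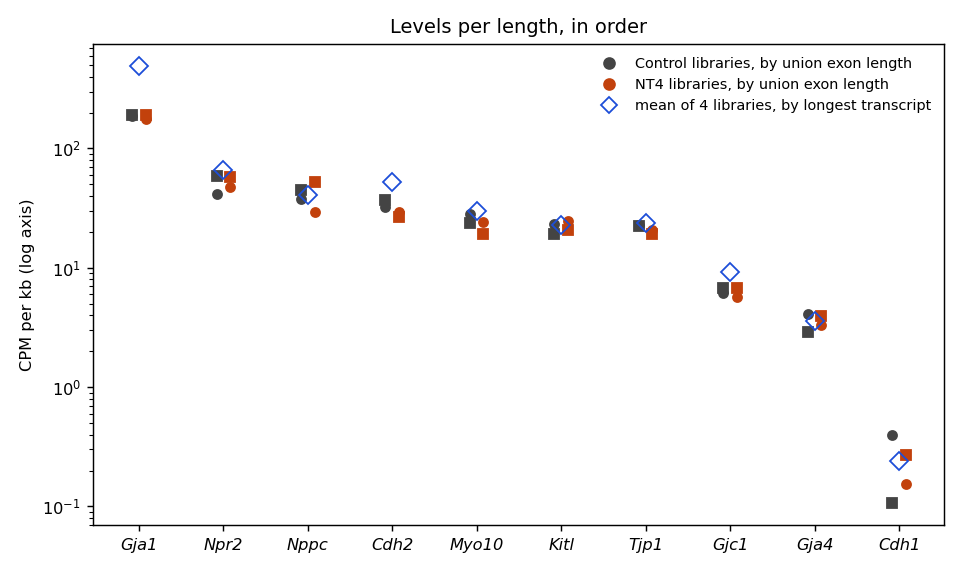
Level of the 10 genes in CPM per kb of exon on a log axis, in falling order of the mean, with 1 point per library (Control grey, NT4 orange; circle replicate 1, square replicate 2) and open diamonds for the mean by longest transcript. Gja1 lies above all others, the 6 genes from Npr2 to Tjp1 overlap in a chain, and Cdh1 lies lowest.

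The members differed in how evenly their replicates agreed. The SD of log2 CPM within groups was 0.04 for Tjp1, 0.07 for Gja1, 0.11 for Cdh2, 0.16 for Kitl and Gjc1, 0.19 for Myo10, 0.29 for Gja4, 0.31 for Npr2, 0.46 for Nppc and 0.99 for Cdh1. Over 14332 genes at a mean of at least 1 CPM the median was 0.18. Of these genes 94.9% had a larger SD than Tjp1 and 12.3% a larger SD than Nppc. The Control libraries of Tjp1 lay closer together than their counting intervals, given above, are wide.

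For 6 of 10 members the libraries numbered 1 and 2 did not overlap, against 48.6% of all genes tested. Nppc, Npr2, Gja1 and Gjc1 were higher in the libraries numbered 2, and Kitl and Myo10 in those numbered 1. Summed GC markers followed the first pattern, at 12527 CPM in the first Control library and 15710 CPM in the second, against 10744 CPM in the first NT4 library and 17183 CPM in the second. Of the 11 GC markers 9 were higher in the libraries numbered 2, while Amh (303 and 151 CPM in Control, 393 and 89.6 CPM in NT4) and Amhr2 (237 and 217 CPM in Control, 268 and 200.3 CPM in NT4) were higher in those numbered 1. The part of these markers in the member levels was not tested. The sources do not say whether a shared number marks the same experiment in both groups.

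**Figure D5:**
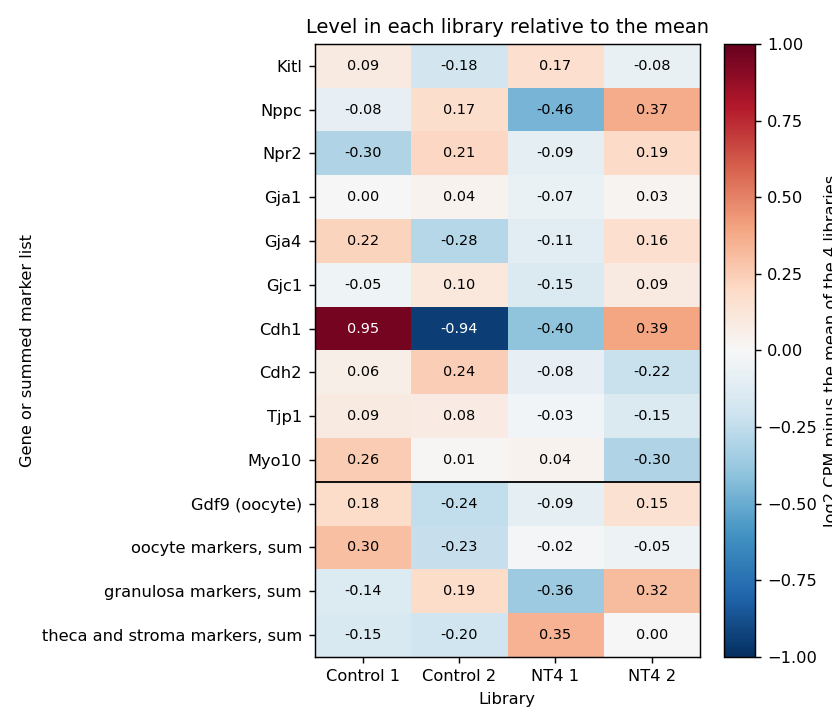
Log2 CPM of each gene or summed marker list in each library minus its mean over the 4 libraries, with red above and blue below the mean. The row of Gja4 runs like that of Gdf9, but not like that of the summed oocyte markers, which is at −0.05 in NT4 2 where Gja4 is at 0.16. The rows of Nppc and Npr2 are highest in libraries numbered 2 as is the row of summed GC markers. Cdh1 has the widest range, from 0.95 in Control 1 to −0.94 in Control 2.

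The protein-coding genes most like Gja1 and Cdh2 over the 4 libraries were found by the Euclidean distance of centred log2 CPM among 12546 genes at a mean of at least 1 CPM. For Gja1 they were Supt7l (distance 0.010), Snrpd1 (0.012) and Yaf2 (0.015), and 888 genes lay within 0.1. For Cdh2 they were Ccdc88c (0.031), Mrtfb (0.043) and Lig3 (0.048), and 30 genes lay within 0.1. With 4 libraries many genes share a pattern, so these distances are a description only.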

How the data were processed

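GCs from follicles grown with or without NT-4 were sequenced in 4 libraries. By the study's methods, the authors discarded low-quality reads with Cutadapt and aligned the remaining reads to the Ensembl v99 mouse genome by HISAT2. Expression was then estimated with StringTie and ballgown. The submitters' processing notes name FastQC, HISAT2, edgeR and mm10. The deposited tables hold expected counts without normalization, 1 whole number for each gene. How these were made from the StringTie estimates is not stated. Files of single libraries held the same counts as the series table in 4 of 4 libraries. Of the 55385 identifiers, 55144 matched a symbol. Coordinates and lengths came from GENCODE M21 (GRCm38), and promoters from RefSeq.

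The counts were tested in R 4.3.3 with edgeR 4.0.16 (quasi-likelihood, TMM, default filter on low counts, group alone, two-sided, Benjamini-Hochberg over all 19259 genes). The SE and 95% intervals come from the F statistic and its degrees of freedom. DESeq2 1.42.0 and limma 3.58.1 served as alternatives. CPM used library totals and log2 CPM a prior count of 2. The procedure was tested on simulated data. The members and lists were chosen with earlier results of these data known. Besides the members, the genes named are of each list those past a threshold, the 3 with the highest level per length and the 2 with the smallest unadjusted p, of each marker list the highest, and the 3 genes most like Gja1 and Cdh2. Kit, Npr1, Npr3, Nppa, Nppb, Furin, Pde3a, Gjd4, Gje1, Panx3 and other markers were added after their values were seen. Some genes that this rule names are not reported here. Protein sequences were not used here.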

Additional observations from a re-analysis of the deposited data

How the results depend on the processing

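The 10 members were refitted under 10 alternatives on all 4 libraries (11 for Npr2) and with each library left out, 141 values in all. Direction was kept in 125 and reversed in 16, 14 of them with a library left out, and 0 passed an adjusted p of 0.05 (lowest 0.910). Cdh1 was at 0.20 in limma voom. With a library left out, log2 fold changes ranged from −0.0065 to 0.23 for Kitl, −0.51 to 0.35 for Nppc, −0.15 to 0.39 for Npr2, −0.085 to 0.043 for Gja1, −0.15 to 0.33 for Gja4, −0.18 to 0.091 for Gjc1, −0.86 to 1.0 for Cdh1 and −0.13 to 0.067 for the median of the members. Here the spread of a lone library is taken from the other group. Cdh2, Tjp1 and Myo10 stayed lower in NT4 in every alternative run.

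By the study's methods the follicle cultures of all groups were run in parallel. The labels give both groups the same replicate numbers without stating a pairing. Over 19259 genes, deviations from the group mean correlated between libraries of one number (Pearson 0.14, Spearman 0.26), but 2 numbers do not establish a pairing. With the replicate block the count at an adjusted p of 0.05 was 0, 580 against 383 had an unadjusted p under 0.05, 180 met the criterion, and Cdh1 was at 0.0026. The smallest unadjusted p of a member was then that of Myo10, at 0.0568 in edgeR's test with a log2 fold change of −0.25.

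Over all genes, the count at an adjusted p of 0.05 was 10 with no filter, 59 by edgeR's exact test, 65 by DESeq2 and from 0 to 37 without single libraries. The criterion count was 345 with no filter, 87 with a CPM of at least 1 in 2 libraries (fewer genes tested) and 119 with counts divided by 4, and from 341 to 512 without single libraries. With the longest transcript the mean log2 ratio was −0.69 for Nppc over Npr2 (−0.34 by all exons), 5.73 for Gja1 over Gjc1 (4.88), 1.39 for Gjc1 over Gja4 (0.84) and 1.13 for Cdh2 over Tjp1 (0.54), through the changed lengths alone. For the other changes the cause was not tested. No member shares exons with another gene on its own strand, so summing such genes gave no value, and summing Npr2 with Gm12473 was chosen after seeing the data. Cdh1 rests on 9 to 24.3 estimated read pairs per library, the fewest of the members.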

Other observations

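The level of Gja4 relative to oocyte transcripts was examined after its values were seen. Per Gdf9 count there were 0.226 and 0.213 Gja4 counts in the Control libraries against 0.217 and 0.221 in the NT4 libraries. The SD of this log2 ratio over the 4 libraries was 0.035, while log2 CPM of Gja4 itself had an SD of 0.24. Over the 14 oocyte markers tested, the SD of the log2 ratio of Gja4 to a marker was 0.035 to 0.41 with a median of 0.20, and Gdf9 gave the smallest value. Over 11 GC markers it was 0.29 to 1.01 with a median of 0.37. The counting error of Gja4 is larger than the spread of its ratio to Gdf9, and 4 libraries are too few for a correlation. For Cdh1 the SD of the log2 ratio was 0.49 to 0.79 over oocyte markers and 0.86 to 1.25 over GC markers. A lower median over oocyte markers than over GC markers was not particular to these genes: Kitl, which GCs express, had 0.21 over oocyte markers and 0.42 over GC markers. For Npr2 the medians were 0.47 and 0.20, and for Gja1 0.26 and 0.23.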
